A study of Homo sapiens with 2 samples.

Results

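Enhancers can contact a promoter that is not the closest one along the chromosome, and the chromatin between them then loops past the promoters of other genes. The interactions described here have that layout by position, and whether their distal bins are enhancers was not tested. Each joined a 5-kb bin that held the transcription start site of a protein-coding gene to a bin without one, the second bin lay outside the body of the joined gene, and the start site of at least 1 other protein-coding gene lay strictly between the bins. They are called skipping interactions below, and the genes whose start sites lay between the bins are called skipped genes. Of the 49245 interactions of the list, 5423 (11.01%) met this rule, and all of them were kept. The rule uses the position of bins and genes only, and no measured value.

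The interactions came from HiChIP. Crosslinked chromatin was digested and enriched with an antibody, and DNA pieces close in space were then ligated and sequenced as read pairs. The cells were HAL-01, an established leukemia cell line with t(17;19), which carries the fusion gene TCF3::HLF. The line stably expressed Cas9 and a guide against TCF3, and colonies grown from it had lost wild-type TCF3, so that the TCF3 (E2A) antibody of the pulldown had the fusion protein as its target. The design held this 1 condition with 2 biological replicates and no control group. The authors merged the replicates before interactions were called, so each contact count is a single value without a replicate error, and no test between groups was possible. Intervals given below cover counting error only, and members that share a bin are not independent. The sum of the contact counts was 136553 read pairs over the 5423 members and 1268490 over the whole list. The files hold no expression values, so neither the identity of the cells nor the activity of a named gene could be checked here.

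TCF3::HLF binds DNA through the basic leucine zipper of HLF, a transcription factor of the PAR bZIP family. In these proteins a basic region contacts the DNA and the leucine zipper pairs 2 molecules. Of the forms TTACGTAA and TTATGTAA, only the first reads alike on both strands. The motif was searched as the letters of either form on either strand, with no mismatch allowed. A bin with such a match is said to hold an HLF motif, which is a property of the reference sequence and not a measurement of binding.

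The following windows of hg38 are shown because they lie in the bins of the members described most closely below. Each is read 5′ to 3′ on the strand that carries the motif as spelled, with the motif in capitals. The first 6 belong to the TSC22D1 interactions and lie in distal and promoter bins that are joined to each other.
TSC22D1 distal bin, chr13:43911042-43911069, minus strand: acaagggtgaTTATGTAAtactaaaatt
TSC22D1 distal bin, chr13:43912058-43912085, plus strand: acattacatgTTACGTAAtgcttttact
TSC22D1 distal bin, chr13:43912620-43912647, minus strand: ctcatttatgTTATGTAAcagtgcaaag
TSC22D1 distal bin, chr13:44145831-44145858, plus strand: agagatgtggTTATGTAAccttttaatc
TSC22D1 distal bin, chr13:44157888-44157915, minus strand: actaaggaagTTATGTAActtactggcg
TSC22D1 promoter bin, chr13:44436300-44436327, minus strand: tttccccacaTTATGTAAtttagtcctt

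The next windows come from promoter bins that are joined to many distal bins or to 1 distal bin with a large contact count. Those of MRPS23, OSER1 and BCL6 are intergenic, whereas those of NFIL3 lie in an intron of NFIL3.
MRPS23 promoter bin, chr17:57851500-57851527, minus strand: atcagacaagTTATGTAActtcctgagg
MRPS23 promoter bin, chr17:57852624-57852651, plus strand: tctgagcaagTTATGTAActtttcgagc
OSER1 promoter bin, chr20:44210968-44210995, plus strand: cacgtgcgccTTACGTAAtttcctgtta
BCL6 promoter bin, chr3:187746233-187746260, plus strand: gtttgtggtgTTACGTAAatcacaggat
NFIL3 promoter bin, chr9:91422583-91422610, minus strand: aaatgttgcaTTATGTAActgccgaatt
NFIL3 promoter bin, chr9:91423467-91423494, plus strand: cagcaaaagtTTATGTAAtgaatgcccc

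The last windows come from distal bins of strong members, in an intron of SND1 for LRRC4, in an intron of SLFN12L for SLFN13, and in a UTR of SRSF1 for MRPS23.
LRRC4 distal bin, chr7:127847548-127847575, minus strand: aaacaggaagTTATGTAAttcaacaaga
SLFN13 distal bin, chr17:35523431-35523458, plus strand: gaagaggaagTTACGTAAaagcttttat
MRPS23 distal bin, chr17:58004275-58004302, plus strand: ttgcaagaagTTACGTAAtttaagttta

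Most interactions that left a promoter for a distal bin outside its own gene passed over other start sites. Skipping interactions made up 82.0% (Wilson 95% interval 81.1 to 82.9%) of the 6610 promoter-to-distal interactions, and the other 1187 had no other start site between the bins. The share rose with distance, from 58.7% (55.7 to 61.6%) at 50 to 100 kb to 77.1% at 100 to 250 kb, 87.0% at 250 to 500 kb, 92.8% at 500 to 1000 kb and 97.8% (96.7 to 98.6%) at 1 to 3 Mb. A longer interval holds more start sites, and interactions between 2 distal bins rose in the same way, with a start site between the bins in 46.0% at 50 to 100 kb and 95.8% at 1 to 3 Mb. Over all distances a start site lay between the bins in 72.6% of the 41268 distal-to-distal interactions. The shares for promoter bins leave out the 822 interactions that ended in the body of the promoter's own gene, 95.5% of which had no other start site between, and nothing comparable was left out between distal bins. With these interactions included, another start site lay between the bins in 73.5% (72.5 to 74.5%) of 7432 interactions with 1 promoter bin, and in 41.6% (39.1 to 44.1%) at 50 to 100 kb, 68.1% at 100 to 250 kb and 97.8% at 1 to 3 Mb. At 50 to 100 kb the promoter share was then below the distal one, and the shares were not tested against each other.

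**Figure D1:**
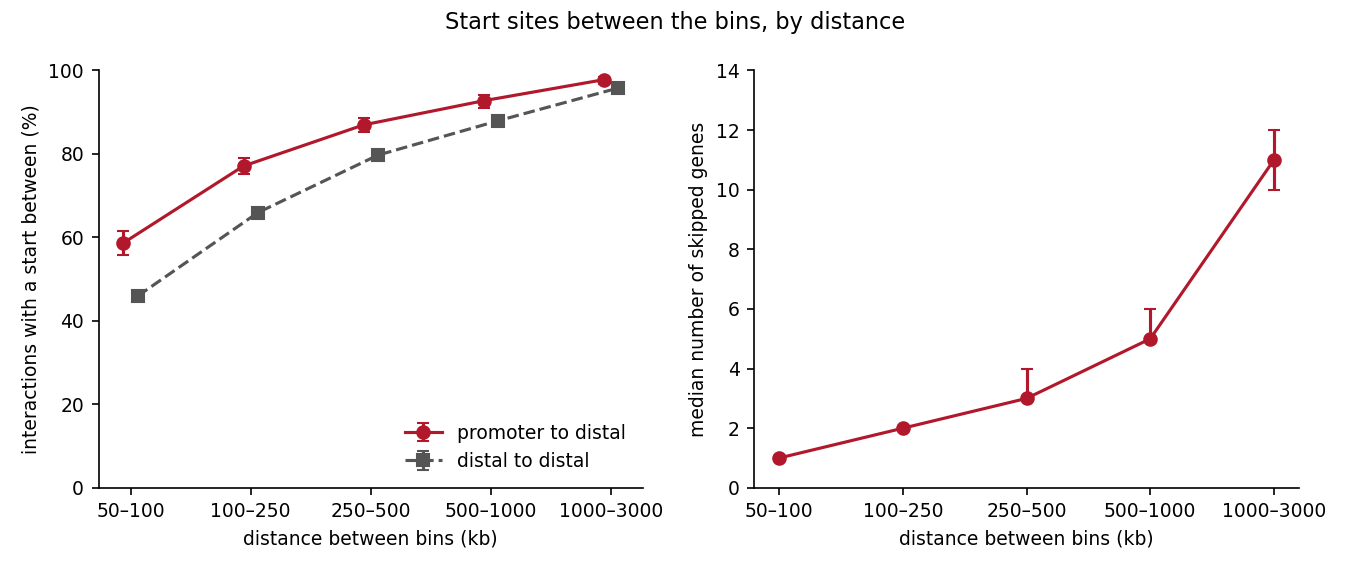
Share of interactions with the start site of another protein-coding gene between the bins (left) and median number of skipped genes (right), for 5 ranges of distance between bins in kb. Red circles are promoter-to-distal interactions (left) and the skipping interactions among them (right), and grey squares are distal-to-distal interactions. Bars are Wilson 95% intervals (left) and 95% intervals of the median (right). The red share rose from 58.7 to 97.8% and the grey one from 46.0 to 95.8%, the red one leaving out interactions within the promoter's own gene, and the median number of skipped genes rose from 1 to 11.

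The median skipping interaction spanned 335 kb (95% interval 325 to 350 kb, quartiles 165 and 715 kb) and passed over 3 genes (quartiles 2 and 7). A single gene was skipped by 1320 members (24.3%), 2 to 4 genes by 2008 (37.0%), 5 to 9 genes by 1101 (20.3%), 10 to 49 genes by 941 (17.4%) and 50 or more by 53 (0.977%). The number followed the distance, with a median of 1 skipped gene at 50 to 100 kb, 2 at 100 to 250 kb, 3 at 250 to 500 kb, 5 at 500 to 1000 kb and 11 at 1 to 3 Mb. Ranked by the distance of all start sites from the distal bin, the joined gene had a median rank of 8. It was the second closest gene in 348 members (6.42%) and the third closest in 579 (10.7%), and 10 or more genes were closer in 2059 (38.0%). It could not be the closest by the rule. Among the 1187 interactions without a start site between, the joined gene was the closest in 457 (38.5%).

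Among these called interactions, contact counts were low and varied little with distance. Each had passed the authors' q-value limit against a background for distance and coverage, and pairs that did not pass are not in the list. The median member had 24 read pairs (quartiles 18 and 30, range 7 to 154), compared with 25 (range 11 to 235) in the 1187 interactions without a start site between and 24 in the whole list. Within ranges of distance the medians were 26, 25, 23, 23 and 22 for members and 26, 26, 24, 21 and 21 for interactions without a start site between. A count of 50 or more was reached by 105 members (1.94%) and by 71 of the 1187 others (5.98%), which were shorter, with a median of 125 kb. A count of 100 or more was reached by 5 members. By number of skipped genes the median count fell from 25 for 1 gene to 22 for 5 or more. Most members were single bin pairs that had not been merged with a neighbour (5107, 94.2%), and 3648 (67.3%) had a q-value under 1e-05.

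**Figure D2:**
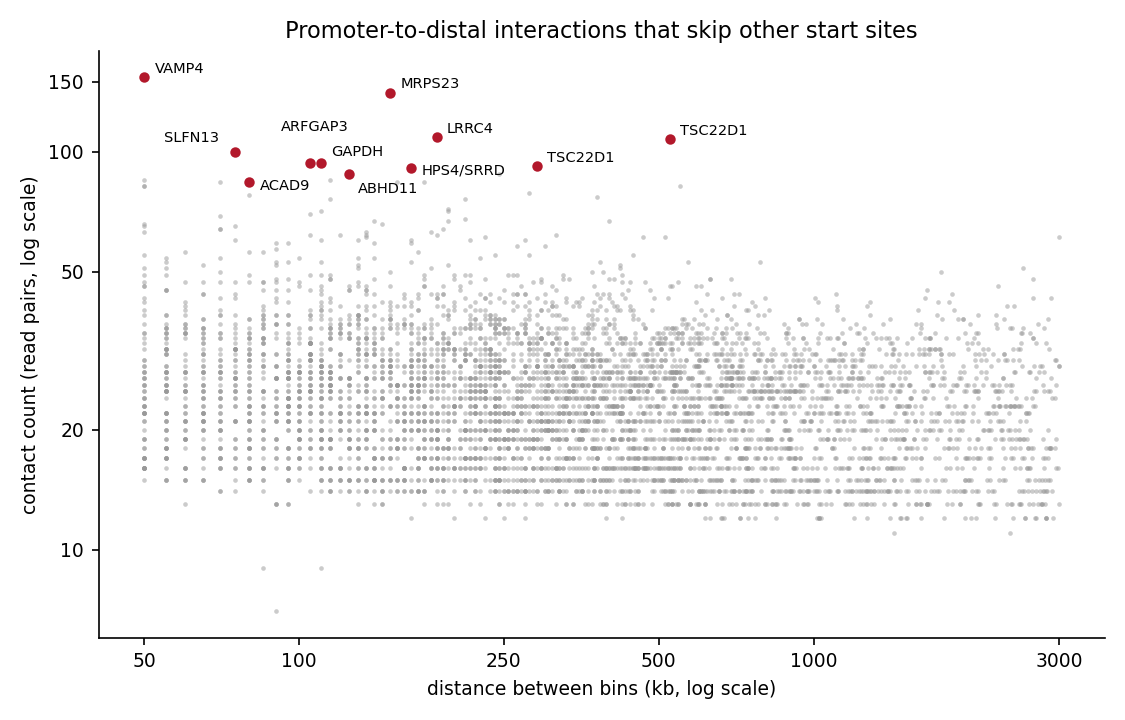
Contact count (read pairs) of the 5423 skipping interactions against the distance between their bins in kb, both on log scales. Each grey point is 1 interaction, and red points with gene names are those with the 10 largest contact counts or the 10 smallest P values. VAMP4 at 50 kb has the largest count (154), and TSC22D1 reaches 108 at 525 kb.

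The share of members was high on chromosomes with many genes per Mb. On chromosome 19, which had 24.4 protein-coding genes per Mb, 223 of 678 interactions (32.9%) were skipping interactions, followed by 25.03% on chromosome 22 and 20.2% on chromosome 17. The share was 4.75% on chromosome 13 and 4.91% on chromosome 18, with 2.80 and 3.26 genes per Mb. Distal bins lay upstream of the joined start in 2635 members and downstream in 2470, and the remaining 318 had promoter bins with start sites on both strands. Upstream bins were 51.6% (50.2 to 53.0%) of those with a direction.

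The distal bins were often inside other genes. A protein-coding gene body overlapped the distal bin in 63.9% (62.6 to 65.2%) of the members, compared with 30.9% (28.4 to 33.6%) of the interactions without a start site between. The gene at the distal bin was itself a skipped gene in 46.2% (44.8 to 47.5%). By annotation, the distal bin touched a UTR in 19.8%, an exon but no UTR in 12.9% and introns alone in 31.3%, and it was intergenic in 36.1%. A class without skipped start sites has few genes in its interval by definition, so the comparison describes the rule as well as the data.

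A minority of members shared their distal bin with a start site that they skipped. In 440 members (8.11%, Wilson interval 7.42 to 8.87%) the list also held an interaction between the distal bin and a bin with a skipped start site. The share was 12.4% with transcripts of every type and 5.74% with 1 start per gene. By the rule used here it was 4.32% where 1 gene was skipped, 6.82% for 2 to 4 genes, 10.5% for 5 to 9 and 13.0% for 10 to 49. A member counted when any of its skipped start sites was joined, so members that skipped more genes had more start sites that could count. At least 1 skipped start site lay in a bin with some interaction of the list in 65.02% of the members. The list begins at 50 kb, so a shorter contact between the distal bin and a skipped start site could not be seen.

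The HLF motif was present in one or both bins of most members. The promoter bin held it in 39.6% (38.4 to 41.0%) and the distal bin in 37.4% (36.1 to 38.7%), with both in 13.8%, the promoter bin alone in 25.9%, the distal bin alone in 23.6% and neither in 36.7%. Among all 5-kb bins of hg38 without an unknown base the share was 30.6%. It was 21.8% among all bins with a protein-coding start site and 31.5% among all anchor bins of the list. These background shares count each bin once, whereas the shares of members count a bin once for every member. Counted once each, 839 of 2998 promoter bins held the motif, a share between those of bins with a start site and of all hg38 bins. Distinct bins of both kinds are given by number of interactions below. The form TTACGTAA was present in 7.23% of promoter bins and 4.48% of distal bins, counted by member. It was present in 1.82% of all bins of hg38, each counted once. Its share among all bins with a start site was not computed, so the promoter bins have no like background for this form. Interactions without a start site between had the motif in 43.98% (41.2 to 46.8%) of promoter bins and 39.8% (37.1 to 42.7%) of distal bins. The share in distal bins stayed between 35.5 and 39.3% in all 5 ranges of distance. Distal bins held the motif in 41.7% where 1 gene was skipped and in 35.9% where 10 to 49 were skipped.

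Bins that took part in many interactions held the motif most often. Each member counts a bin once for every interaction it has, so distinct bins were also counted. Of the 2001 distinct promoter bins with a single interaction in the whole list, 21.8% (20.04 to 23.7%) held the motif, which is the share of all bins with a start site. With 2 to 4 interactions it was 30.4%, with 5 to 9 it was 49.7%, and with 10 or more it was 63.8% (54.7 to 72.0%) of 116 bins. Distal bins went from 25.4% (23.7 to 27.1%) of 2596 bins with 1 interaction to 67.4% (62.9 to 71.7%) of 436 bins with 10 or more. Median GC content of these distal bins was 42.4% with 1 interaction and 41.9% with 10 or more, and was 47.2 and 44.6% in promoter bins. In the 839 distinct promoter bins with a motif, of 2998, the motif closest to a start site lay a median of 1288 bases from it (1184 to 1424 bases), and 123 (14.7%) had one within 300 bases. A promoter bin of 5 kb is thus wider than the promoter, and a contact of the bin need not be a contact of the start site.

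Interactions were thus unevenly spread over the bins. The promoter bin had more interactions in the whole list than the distal bin in 55.2% of the members and fewer in 42.7%. Only 74 members (1.36%) joined bins that had no other interaction. The core motif of CTCF, the zinc-finger protein that marks many loop ends, was present in 3.71% of promoter bins and 3.52% of distal bins, with 3.31% of all bins with a start site and 1.82% of all bins of hg38 for comparison. Both bins held it in 10 members, and in 7 of these the motifs pointed toward each other.

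The strongest member joined the promoter bin of VAMP4, a SNARE protein of vesicles at the Golgi, to a bin 50 kb upstream with 154 read pairs (Poisson 95% interval 131 to 180), with a binomial P from FitHiChIP of 1.22e-131. This was 5.70 times the median of the 1393 listed interactions at the same distance. The interaction skipped METTL13, which methylates a translation elongation factor, and its distal bin overlapped an exon of the same gene. The other 3 members of VAMP4 went the opposite way, with 25 to 33 read pairs. The distal bin holds a start site of METTL13 when transcripts of every type are counted, and the interaction then joins 2 promoters.

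MRPS23, a protein of the small mitochondrial ribosomal subunit, had the second largest count, 141 read pairs (119 to 166), at 150 kb. This was 5.88 times the median of the 494 interactions at that distance, and the merged group around it summed to 702 read pairs. It skipped VEZF1 and CUEDC1 and ended in a bin that overlaps the 3′ part of SRSF1, a splicing factor. MRPS23 had 25 members in all, as many as any gene, with 14 to 141 read pairs and distances from 60 to 2995 kb, and 17 of them went upstream. Its single promoter bin held 2 HLF motifs and had 31 interactions. Because of these members CUEDC1, VEZF1 and SRSF1 were among the genes skipped most often, by 21, 20 and 18 interactions. VEZF1, a zinc-finger factor, had no skipping interaction of its own. The start of MRPS23 at position 57850056 lies close to the edge of its bin, which begins at 57850001.

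TSC22D1, a leucine zipper protein of the TSC22 family, was joined to 3 distant bins with large counts. Its promoter bin met a bin 525 kb downstream with 108 read pairs (88.6 to 130), 4.91 times the median of the 126 interactions at that distance, and bins at 290 and 280 kb with 92 and 79 read pairs. The fourth, at 505 kb, had 15 read pairs, far below the other 3. All 4 skipped SMIM2 and SERP2, all 4 distal bins held an HLF motif, and the bin at 525 kb held the 3 motifs shown above and had 38 interactions. The joined start belongs to a shorter transcript, since the 5′ end of the gene lies at 44577147. With 1 start per gene these 4 interactions join distal bins.

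LRRC4, an adhesion protein of synapses, was joined to an intron of SND1 at 185 kb with 109 read pairs (89.5 to 131). It was the only interaction of that promoter bin, whereas the distal bin had 19. SLFN13, a Schlafen nuclease that cleaves tRNA and rRNA, met a bin overlapping SLFN12L at 75 kb with 100 read pairs (81.4 to 122), and ARFGAP3, a GTPase activator of the Golgi, met an intron of PACSIN2 at 105 kb with 94. ACAD9, an assembly factor of respiratory complex I, met an intron of CFAP92 at 80 kb with 84. In these 4 members the skipped gene was also the gene at the distal bin, and the skipped start was that of a shorter transcript. With 1 start per gene no start lay between the bins.

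The other members among the 10 largest counts or 10 smallest P values skipped more genes. GAPDH, the glycolytic enzyme, was joined to an intergenic bin 110 kb away with 94 read pairs (76.0 to 115). It passed NCAPD2, MRPL51, VAMP1, TAPBPL and CD27, the last a receptor of lymphocytes. The joined start lies inside the gene, whose 5′ end is at 6534512 in another bin. With 1 start per gene this interaction joins bins without a start site. A bin with the start sites of HPS4 and SRRD met an intergenic bin at 165 kb with 91 read pairs, past 4 genes that include the lens crystallins CRYBB1 and CRYBA4. Both of its bins held an HLF motif, and the distal bin was also joined to a skipped start. ABHD11, a mitochondrial hydrolase, met an intron of MLXIPL, a glucose-responsive transcription factor, at 125 kb with 88 read pairs, past 5 genes. Of these 11 interactions, 10 remained skipping interactions with transcripts of every type and 4 with 1 start per gene, namely those of VAMP4, MRPS23, HPS4 with SRRD, and ABHD11.

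Some genes were joined past their neighbours again and again. OSER1, an oxidative stress responsive protein, had 25 members with 15 to 49 read pairs at 55 to 2555 kb, all from 1 promoter bin with 2 HLF motifs and 28 interactions. It had no promoter-to-distal interaction without a start site between. Its largest count, 49, was at 105 kb past GDAP1L1 and FITM2, and both bins held 2 motifs. GDAP1L1 was skipped by 18 interactions and had none of its own. COL9A2 on chromosome 1, a chain of collagen IX, was also skipped by 18 and had 1 of its own. OSCP1 had 21 members (16 to 38 read pairs). IFT57, a component of the transport along cilia, had 19 (16 to 70 read pairs), of which several skipped CD47, the surface signal that restrains phagocytosis, and others HHLA2, a relative of the B7 ligands. NARS2, a mitochondrial asparagine tRNA synthetase, also had 19 (15 to 52 read pairs), with GAB2, a signalling adaptor, the only skipped gene of the largest one. With 1 start per gene all 19 members of NARS2 joined bins without a start site.

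Leukemia and B-cell genes were found among the members as well. BCL6, the repressor of germinal centre B cells, had 4 members, all upstream and all past LPP into LPP introns. The promoter bin at its 5′ end met bins at 550 kb with 82 read pairs (binomial P = 2.36e-59) and at 690 kb with 48. The other 2, from bins with later starts, had 23 and 18. The bin at 550 kb had 33 interactions, held no HLF motif and was also joined to the LPP start. SOCS1, a suppressor of cytokine signalling, had 1 member with 84 read pairs (binomial P = 5.24e-57) at 155 kb, in an intron of CLEC16A and past RMI2. CD72, an inhibitory receptor of B cells, had 1 with 82 read pairs at 50 kb past the kinase TESK1. CD86, a costimulatory ligand, met a bin overlapping MIX23 at 265 kb with 58 read pairs past CASR and CSTA.

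NFIL3 is a bZIP repressor that recognises a motif like that of HLF. All 7 of its members ran downstream past a start site of AUH, an RNA-binding enzyme of mitochondria, from a promoter bin with 2 HLF motifs. The member at 125 kb ended inside AUH. Their counts were 18, 18, 18, 18, 23, 35 and 35 read pairs at 125 to 450 kb. The 2 with 35 read pairs lay at 275 and 450 kb in intergenic bins without a motif, and the 2 bins with a motif had 18 each. NFIL3 had no other promoter-to-distal interaction, and these 7 were the whole of its promoter bin's interactions. They remained skipping interactions when 1 start per gene was used.

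**Figure D3:**
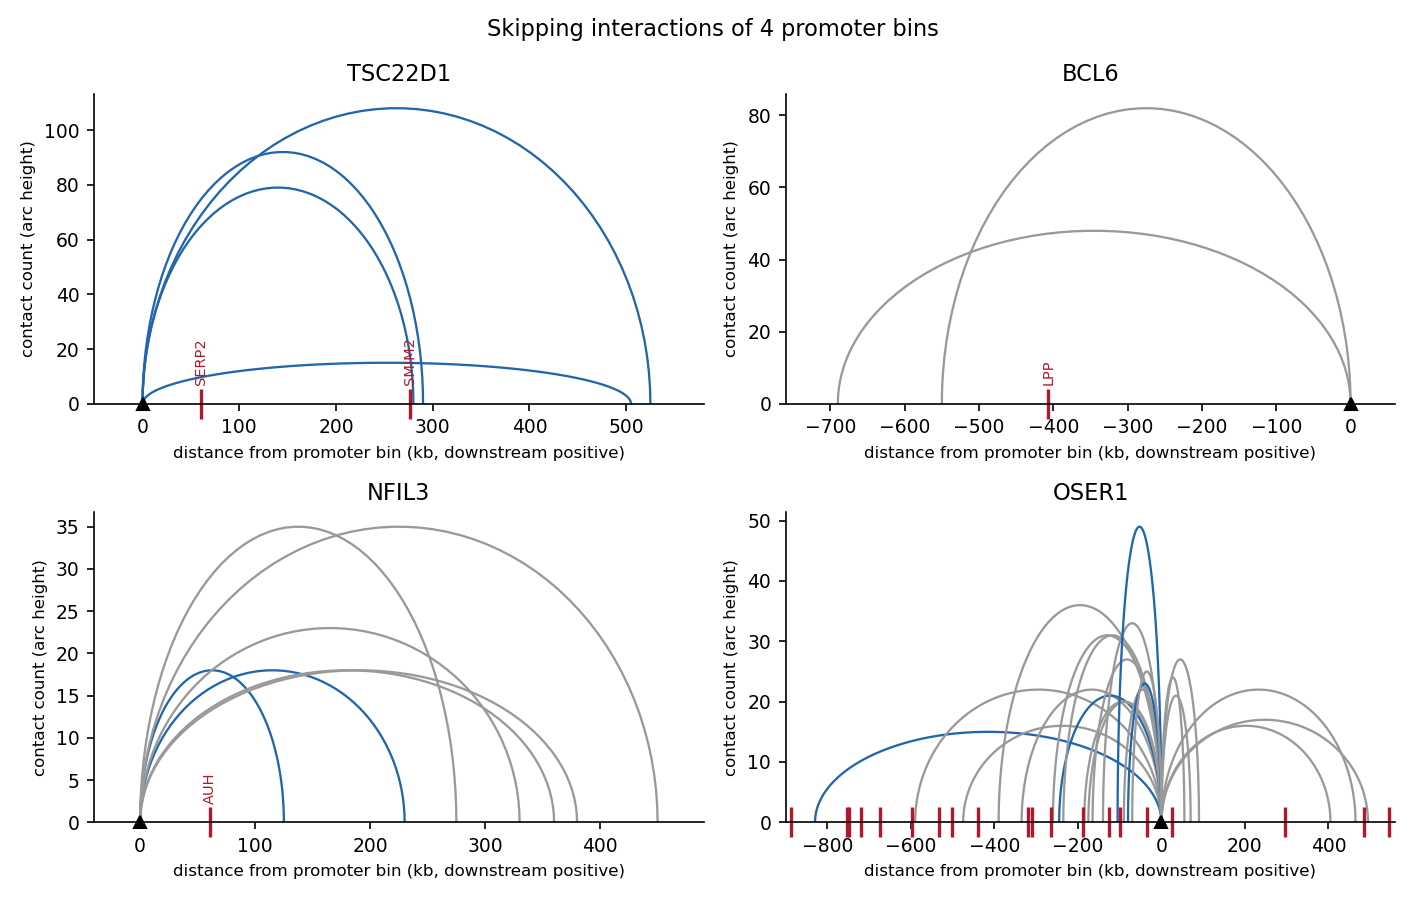
Skipping interactions of the promoter bins of TSC22D1, BCL6, NFIL3 and OSER1. The x axis is the distance from the promoter bin (triangle) in kb along the gene's direction, and the height of each arc is its contact count in read pairs. Blue arcs end in a distal bin with an HLF motif and grey arcs in one without, and red ticks are skipped start sites (the middle one of each gene). For OSER1, interactions beyond the axis are not drawn. All TSC22D1 arcs are blue and reach 108, and both BCL6 arcs are grey and reach 82. AUH is the only skipped gene of the 7 NFIL3 arcs.

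Over the 20033 protein-coding genes, 2928 (14.6%) had a skipping interaction. Of these, 1956 had 1, 269 had 5 or more and 44 had 10 or more, and 2546 had no promoter-to-distal interaction without a start site between. In turn 12978 genes were skipped at least once, of which 2201 also had a skipping interaction. The members used 2998 distinct promoter bins and 4864 distinct distal bins, and 422 distal bins were joined to 2 or more promoter bins. The background for each gene list below is the 14.6% of all genes.

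Of the genes for leukocyte surface and adhesion proteins, 12 of 30 (40.0%, Wilson interval 24.6 to 57.7%) had a skipping interaction. It was 6 of 30 with 1 start per gene (20%, 9.51 to 37.3%), beside 10.2% of all protein-coding genes. They included CD72, CD86, CCR7 with 5 members (14 to 45 read pairs), CD9 and MME with 4 each, CD82 with 3, CD44 with 2, and CD74, the invariant chain of MHC class II, with 1 of 41 read pairs. ITGA4, ITGB1, ITGB2 and CXCR5 had 1 each (16 to 29 read pairs). The B-lineage list had 5 of 25 (20%). Beside BCL6 these were RAG1, the recombinase of antigen receptor genes, with 4 members (18 to 35 read pairs), POU2AF1, a B-cell coactivator, with 3, PAX5 with 2 of 20 and 24 read pairs past ZCCHC7, and IKZF3 with 1 of 40 read pairs past the GSDMB and ORMDL3 region. The promoter bin of RAG1 also held a start of TRAF6, and 3 of the 4 members skipped RAG2. Of the cytokine receptor and JAK-STAT list, 5 of 31 (16.1%) had one. STAT3 had the largest count after SOCS1, with 42 read pairs (binomial P = 8.39e-26) to a bin overlapping CCR7 1835 kb away, past 90 genes. STAT5A and STAT5B share a promoter bin and its 1 member of 29 read pairs.

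Of the G1 cell cycle list, 4 of 21 (19.0%) had a skipping interaction. CCND3, the D-type cyclin of lymphoid precursors, had 5 members with 19 to 61 read pairs, and the largest ended in a bin overlapping USP49 at 230 kb. RB1, which restrains entry into S phase, also had 5 (14 to 30 read pairs), all upstream and all past ITM2B. The BCL2 family had 3 of 16 (18.8%). MCL1, an inhibitor of apoptosis, had 6 (16 to 27 read pairs), HRK, a promoter of apoptosis, had 2 (18 and 31), and BCL2 had 1 of 25 read pairs into PHLPP1 at 390 kb. The stem and progenitor transcription factors had 3 of 24 (12.5%). These were MEF2C with 9 members (13 to 31 read pairs, from 4 promoter bins, at 690 to 2520 kb) beside 34 interactions without a start site between, LYL1 with 4 (27 to 37 read pairs) and PRDM16 with 1 of 33 read pairs.

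Among the genes of the loop and enhancer machinery, 4 of 19 (21.1%) had a member each, namely SMC3 and STAG2 of cohesin, its loader NIPBL, and the acetyltransferase CREBBP (20 to 30 read pairs). Among the cytosolic ribosomal protein genes 17 of 79 (21.5%) had one, led by RPS7 with 45 read pairs at 55 kb and by RPSA with 5 members (14 to 40 read pairs). In the list of PAR bZIP, C/EBP, E protein and ID genes NFIL3 was the only one, 1 of 15 (6.67%). The interval of the leukocyte surface list lay above 14.6%, and the intervals of the other 8 lists included it. The interval of the leukocyte surface list with 1 start per gene included the share of all genes (10.2%), and that of the ribosomal list (13.9 to 31.8%) lay above it. With transcripts of every type the background was 20.1%, and the leukocyte surface list (43.3%, 27.4 to 60.8%) and the cytokine receptor list (38.7%, 23.7 to 56.2%) lay above it. No test was made between the lists, and the lengths of the genes and the density of start sites around them were not matched. With 1 start per gene, the largest interactions of CD72, CD86, CD44, CD9, MME, CCND3, IKZF3 and PAX5 joined bins without a start site. So did those of BCL2, MEF2C, PRDM16, RPSA, RB1, POU2AF1, ITGB1, ITGB2 and NIPBL. In the largest interaction of RAG1 no start site of another gene then lay between the bins. The largest ones of BCL6, SOCS1, STAT3, CCR7, CD74, LYL1, MCL1, NFIL3 and RPS7 remained skipping interactions. The same held for CD82, CXCR5, ITGA4, HRK, STAT5A with STAT5B, SMC3, STAG2 and CREBBP.

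**Figure D4:**
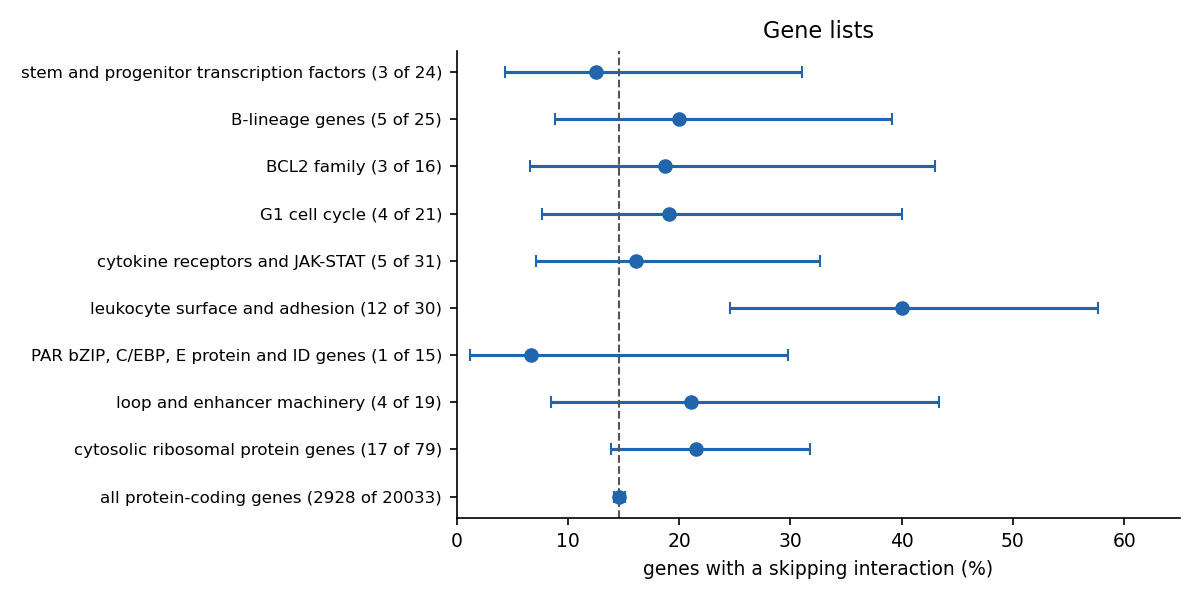
Share of the genes of each list with at least 1 skipping interaction (per cent), with the number of genes in brackets. Points are shares and bars Wilson 95% intervals, and the dashed line is the share of all protein-coding genes (14.6%). The leukocyte surface and adhesion list lies at 40.0% (20% with 1 start per gene), and the bars of the other 8 lists cross the line.

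The members that passed the most genes lay in the dense stretches of chromosomes 16 and 17. NLRC3, a negative regulator of innate immune signalling, was joined over 2705 kb and 113 genes to a bin overlapping LMF1 with 25 read pairs. ATP6V0A1, a subunit of the proton pump of vesicles, passed 113 genes with 16 read pairs and 106 genes with 41. A bin with the starts of PTGES3L and PTGES3L-AARSD1 passed 111 genes with 20 read pairs, and PIMREG, a mitotic regulator, passed 101 with 13. Intervals of these counts were wide, from 6.92 to 22.2 for PIMREG and from 29.4 to 55.6 for the larger one of ATP6V0A1. With transcripts of every type the NLRC3 interaction had a start site in both bins. With 1 start per gene those of PTGES3L and PIMREG joined bins without a start site. Those of ATP6V0A1 remained skipping interactions under both alternatives.

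Some distal bins were shared by many promoters. A bin in TRIOBP, an actin-binding protein (chr22:37740001-37745000), met 8 promoter bins with 18 to 38 read pairs, among them those of LGALS1, a galectin, at 65 kb and of EIF3D, a translation initiation factor, at 1230 kb. An intergenic bin at chr16:31700001-31705000 met 7 promoter bins (14 to 26 read pairs). A bin in NRXN2 on chromosome 11 and an intergenic bin at chr12:108045001-108050000 met 6 each, with 18 to 56 and 20 to 47 read pairs, and the second had 44 interactions in all, including those with CMKLR1, FICD and SSH1. These 4 bins held 1 HLF motif each. A bin in EXTL1 on chromosome 1 met 6 promoter bins (20 to 50 read pairs), including that of the chromatin remodeller ARID1A at 675 kb past 20 genes, and held none. With transcripts of every type all 6 interactions of the bins in EXTL1 and NRXN2 joined 2 promoters, as did 4 of those of the EXTL1 bin with 1 start per gene, whereas those of the other 3 bins remained skipping interactions with transcripts of every type. With 1 start per gene 6 of 8 remained skipping for the TRIOBP bin, 7 of 7 for the bin on chromosome 16, and 4 of 6 for each of the NRXN2 and chromosome 12 bins.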

How the data were processed

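The data were the merged HiChIP interactions of the 2 biological replicates. Per the methods, the authors trimmed reads (Trim Galore 0.6.6 per the labels), aligned them to hg38 with BWA-MEM, extracted pairs with pairtools without its deduplication step, and took MACS2 peaks as the reference for FitHiChIP, which was run on 5-kb bins at distances of 50 kb to 3 Mb under a q-value limit of 0.01. The FitHiChIP version is not given in the sources used here. The deposited contact count is the number of read pairs that join 2 bins, without normalization. Omitting deduplication means that PCR copies can add to it. The Poisson intervals given here take read pairs as independent and do not cover such copies. The p-value and q-value deposited by the authors are from the FitHiChIP background for distance and coverage, and the deposited fraction says how many of the bin pairs merged into a group were significant.

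Start sites were those of protein-coding transcripts of protein-coding genes in GENCODE release 44 on hg38, and 0 bins lay past a chromosome end. Distance is that between bins in hg38, not in the rearranged genome of the line. The classification gave the right class for 998 of 998 simulated pairs of bins. Shares have Wilson 95% intervals, single counts exact Poisson 95% intervals and medians 95% intervals from order statistics. CTCF matches were exact matches to a core motif on either strand. The bins of each member were compared for near-identical sequence (500 or more shared 31-mers), which 0 members had. Members named are those with the 10 largest contact counts, the 10 smallest P values and the 5 largest numbers of skipped genes, the 5 genes with most members, the 5 genes skipped most often, the 5 distal bins with most members, and the leading genes of each list. Genes beyond these were named after their values were seen. The members and the gene lists were chosen with earlier results of these data known. The software was Python 3.11.15 with pandas 2.3.3, numpy 2.4.6, matplotlib 3.10.9 and scipy 1.17.1.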

Additional observations from a re-analysis of the deposited data

How the results depend on the processing

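No paired analysis was possible because the replicates were merged before interactions were called, and for the same reason no value could be computed without either replicate. With 1 start per gene the number of skipping interactions was 3399, of which 3080 are among the 5423. With transcripts of every type it was 7834, of which 4975 are among them, and 2837 interactions met the rule under all 3 definitions. The share of promoter-to-distal interactions that skip was 84.0% with transcripts of every type, 80.6% at a contact count of at least 20, 79.4% up to 1 Mb, 80.9% without chromosomes 17 and 19 and 83.3% in single bin pairs. It was 73.5% with interactions in the own gene body included, an alternative chosen after seeing the data, as were the other start definitions for the gene lists. The share with an HLF motif in the distal bin was 4.48% with TTACGTAA alone and stayed inside its interval otherwise. The share whose distal bin was also joined to a skipped start was 12.4% with transcripts of every type, 5.74% with 1 start per gene, 5.95% at a q-value under 1e-05, 7.08% at a contact count of at least 20, 7.09% in single bin pairs and 11.5% with the distal bin widened by 1 bin on each side, the last chosen after seeing the data. The causes were not tested. Leaving out near-identical bins changed no value. Of the other 33 values under alternatives (medians and the promoter motif), 25 stayed inside the 95% interval of the reported value. With a median of 24 read pairs, a difference of a few read pairs between members was within counting error.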

Other observations

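Large counts at over 1 Mb were rare, and the 5 largest outside chromosome 8 were looked up after their values were seen. The promoter bin of CASK, a scaffold kinase of synapses, met a bin in KDM6A, a histone demethylase, at 3000 kb, the edge of the range searched, with 61 read pairs (Poisson 95% interval 46.7 to 78.4) past 8 genes that include MAOA and MAOB. RFX3, a factor of ciliated cells, met an intergenic bin at 2550 kb with 51 read pairs past 20 genes, among them JAK2 and CD274. IRX2 met a bin at 1765 kb past its relative IRX1 alone, with 50 read pairs (37.1 to 65.9), and that distal bin had 14 interactions and an HLF motif. ST7 was joined to FOXP2 at 2675 kb with 48 read pairs, to a bin with 4 HLF motifs, and KIAA0408 had 46 at 2285 kb. None of the bins of CASK and RFX3 held the motif.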
